A study of Mus musculus with 6 samples.

Results

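The 10 genes described here, *Amelx*, *Ambn*, *Enam*, *Mmp20*, *Acp4*, *Klk4*, *Amtn*, *Odam*, *Wdr72* and *Slc24a4*, encode the enamel matrix and the machinery with which ameloblasts secrete and then mature it. They were looked up by symbol among the 19270 genes of the deposited expression table, and all 10 were present. The first 5 are genes of the secretory stage and the last 5 of the maturation stage. The list was chosen from results of this same contrast, the group means of mutant and control incisors, so the differences below describe the members and are not tests of them. To ask which genes change after loss of the chromatin remodeling subunit ARID1B, bulk RNA-seq was performed on the proximal end of the continuously growing mouse incisor, in 3 control and 3 mutant libraries. Mutant mice were *Gli1-CreER;Arid1b*fl/fl, in which CreER is driven by *Gli1* and deletes floxed *Arid1b* in the GLI1+ lineage; that lineage feeds both the mesenchyme and the epithelium of the incisor. Control mice are labelled wild type, whereas the study's methods describe tamoxifen-injected *Arid1b*fl/fl mice, and neither source states that they carried Cre. All mice received tamoxifen at the age of 1 month and were sampled at day 4 after induction.

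Enamel is the product of a single epithelial cell type, the ameloblast, which descends from the cervical loop at the proximal end of the incisor. In the secretory stage, ameloblasts lay down a protein matrix of amelogenin, ameloblastin and enamelin, and the protease enamelysin begins to process it while crystals lengthen. In the maturation stage, reached farther toward the tip, the cells remove the remaining protein with kallikrein 4, attach to the enamel through a specialized basal lamina that holds amelotin and ODAM, and move calcium and acid so that the crystals thicken. Amelogenin, ameloblastin, enamelin, amelotin and ODAM belong to the secretory calcium-binding phosphoproteins, a family that also includes the dentin and bone proteins made by mesenchymal cells.

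The values are the authors' group means of a normalized signal, 1 for each group and gene, and they carry no SD; single-library values of a gene were not analysed here. Whether all 3 libraries of a group or a single library carried a difference therefore cannot be seen, and no member was tested. Read from the lowest values, the libraries held roughly 37123643 to 49594469 reads on these genes, and 3 reads in every library would give a control mean of 0.103 and a mutant mean of 0.0923. All members lay above that level in both groups. The targeted gene *Arid1b* had a mean of 97.6 in controls against 38.03 in mutants. The labels do not give sex, and the groups differed in sex-linked transcripts: *Ddx3y*, a Y-linked transcript, was at the lowest value in the controls and at 65.3 in the mutants, and *Xist* was at 3368 in controls and 814 in mutants. Effects of sex and of genotype on the members cannot be told apart.

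RefSeq start sites on GRCm38.p6, the assembly also called mm10, were at hand for 9 of the 10 members. The stretches of 120 bases before the start are shown for the 5 phosphoprotein genes because these contain the same 7 letters at a similar distance, although they belong to both stages. Capitals mark TGATTGG, the reverse complement of CCAATCA, which contains the CCAAT box.
*Amelx*, chrX:169187210-169187329, minus strand: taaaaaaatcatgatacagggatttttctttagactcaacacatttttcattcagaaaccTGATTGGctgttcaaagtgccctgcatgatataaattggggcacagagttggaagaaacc
*Ambn*, chr5:88455871-88455990, plus strand: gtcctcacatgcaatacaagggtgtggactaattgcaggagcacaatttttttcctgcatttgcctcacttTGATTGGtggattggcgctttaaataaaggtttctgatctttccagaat
*Enam*, chr5:88487855-88487974, plus strand: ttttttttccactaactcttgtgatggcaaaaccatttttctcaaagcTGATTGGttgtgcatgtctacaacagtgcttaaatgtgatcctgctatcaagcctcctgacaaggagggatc
*Amtn*, chr5:88375988-88376107, plus strand: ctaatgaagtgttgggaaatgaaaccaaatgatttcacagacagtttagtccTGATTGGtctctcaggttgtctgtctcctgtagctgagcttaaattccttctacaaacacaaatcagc
*Odam*, chr5:87884890-87885009, plus strand: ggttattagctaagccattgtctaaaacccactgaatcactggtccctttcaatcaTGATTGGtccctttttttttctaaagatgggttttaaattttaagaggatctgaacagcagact

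In these 5 genes the motif lay on the same strand relative to transcription, and its first base stood 49 bases (*Ambn*), 60 (*Amelx*), 64 (*Odam*), 68 (*Amtn*) and 72 (*Enam*) before the start. The 7 letters were noticed after the sequences were read. Searched on both strands, they occurred in 5.15% of all 32851 listed promoters within the same 120 bases and in 7.82% within the whole window of 300 bases, which runs from 250 before to 50 after the start. The shorter CCAAT, chosen earlier, was present in 6 of the 9 member promoters and in 37.4% of all promoters. *Mmp20*, *Acp4*, *Klk4* and *Slc24a4* held no CCAATCA in their windows. The genes with the motif were 1.48 to 14.6 times as high in the mutants as in the controls, and the 4 without it were 0.809 to 19.4 times as high, so that the ranges overlapped. Among other motifs searched on both strands in the 300 bases, TATAAA was present in *Amelx*, *Enam* and *Mmp20* (13.6% of all promoters), the homeodomain core TAATTG in *Odam* and *Ambn* (8% of all promoters), and TAATTA in *Mmp20* (5.29% of all promoters). The RUNX core TGTGGT was found in *Odam* (16.8% of all promoters). TGCGGT (6.45% of all promoters) and the GC box GGGCGG (35.7%) were in none of the 9. In *Amelx* the TATAAA began 31 bases before the start and shared 1 base with a further CCAAT on the other strand.

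**Figure D1:**
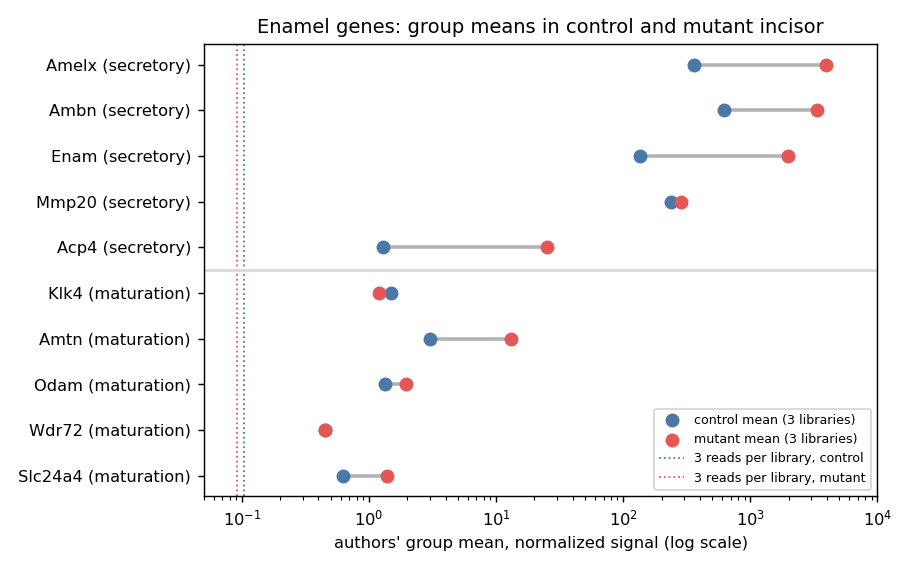
Authors' mean of the normalized signal (log axis) for each of the 10 enamel genes in control (blue) and mutant (red) incisors, 3 libraries in each group, with dotted lines at the level of 3 reads per library; no error bar can be drawn from group means. *Amelx*, *Ambn* and *Enam* stood at 136 or higher in both groups, all 5 maturation-stage genes lay at 13.0 or lower, and the points of *Wdr72* coincided.

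Transcripts of the 3 structural matrix proteins were abundant in both groups and many times higher in the mutants. *Amelx*, which encodes amelogenin, the main protein of forming enamel, averaged 362 in controls against 3946 in mutants, a ratio of 10.9 (log2 difference 3.45). It ranked 326 of 19270 genes by signal in controls and 8 in mutants. *Enam*, for enamelin, the largest of the matrix proteins, had means of 136 and 1983, a ratio of 14.6 (log2 difference 3.87), with rank 1390 in controls and 25 in mutants. *Ambn*, for ameloblastin, which also serves ameloblast adhesion, had means of 617 and 3360, a ratio of 5.44 (log2 difference 2.44). Together the 5 secretory-stage genes made up 0.132% of the summed signal of all genes in controls and 0.979% in mutants. In whole tissue, more cells of a type and more RNA per cell cannot be told apart.

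The remaining secretory-stage genes, both enzymes, stood at opposite ends. *Mmp20* encodes enamelysin, the metalloproteinase that cleaves the matrix during secretion, and its mean was 236 in controls against 285 in mutants, a ratio of 1.21 (log2 difference 0.27). By signal it was at ranks 622 and 445 of all genes, and its difference was far below those of the matrix genes. *Acp4*, which encodes a membrane acid phosphatase needed for normal enamel thickness, was near the bottom in the controls at 1.30 and at 25.3 in the mutants, a ratio of 19.4 (log2 difference 4.28). This was the largest of the 10 without a pseudocount, but with a pseudocount of 1 it was 3.51, below the 3.86 of *Enam*. The control mean of *Acp4* corresponds to about 49.2 reads per library and the mutant mean to about 1094. Exons of *Acp4* overlap those of *2410002F23Rik* on the opposite strand, and since counting by strand is not stated, some reads could belong to either; *2410002F23Rik* itself had means of 69.3 and 77.0, a ratio of 1.11. *Mmp20* and *Slc24a4* overlap annotated antisense transcripts, but not in their exons.

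The maturation-stage genes had low means in both groups, and their differences were mixed. None of the 5 reached a mean of 10 over both groups. Of the secretory-stage genes *Acp4* was as low in the controls and reached it through its mutant mean alone. *Amtn*, for amelotin of the maturation basal lamina, had means of 3.01 and 13.0, a ratio of 4.32 (log2 difference 2.11). *Slc24a4*, a sodium, calcium and potassium exchanger that passes calcium toward the enamel, had means of 0.626 and 1.38, a ratio of 2.20 from about 23.2 and 58.7 reads per library. With a pseudocount of 1 its log2 difference of 1.14 became 0.55, under the fold of 1.5. *Odam*, whose protein shares the basal lamina with amelotin, had means of 1.33 and 1.97, a ratio of 1.48 and just under that fold.

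*Klk4* and *Wdr72*, which are used late in enamel formation, had mutant to control ratios of 0.809 and 1.01. *Klk4* encodes the serine protease that clears the residual matrix, and it was the single member with a lower mutant mean, 1.49 in the controls against 1.21 in the mutants (log2 difference -0.31). These means correspond to about 56.6 and 51.2 reads per library. *Wdr72*, needed for vesicle trafficking in maturing ameloblasts, had means of 0.449 and 0.454, or about 16.4 and 18.7 reads per library.

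Counted by fold, 6 of the 10 members were more than 1.5 times as high in the mutants, and none was lower by that factor. Of all 19270 genes, 7.37% passed the same fold upward and 5.80% downward, so that a count of 0 lower among 10 is near the background. Because low means scatter more, the shares were also taken by level: it was 2.15% among the 10311 genes whose mean was 10 or more, where *Amelx*, *Ambn* and *Enam* passed and *Mmp20* did not, and 13.4% of the 8959 genes below it, where 2 of the 5 maturation-stage genes passed. *Acp4* belongs to the higher genes through its mutant mean alone and is left out of both. The same 6 members were also more than 2 times as high, against 3.03% of all genes. Since the members were picked from this contrast, these counts place them beside the background and lend no support. The median log2 difference was 3.45 over the secretory-stage genes, 0.56 over the maturation-stage genes and 0.0022 over all genes, which puts the stages 2.88 apart.

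**Figure D2:**
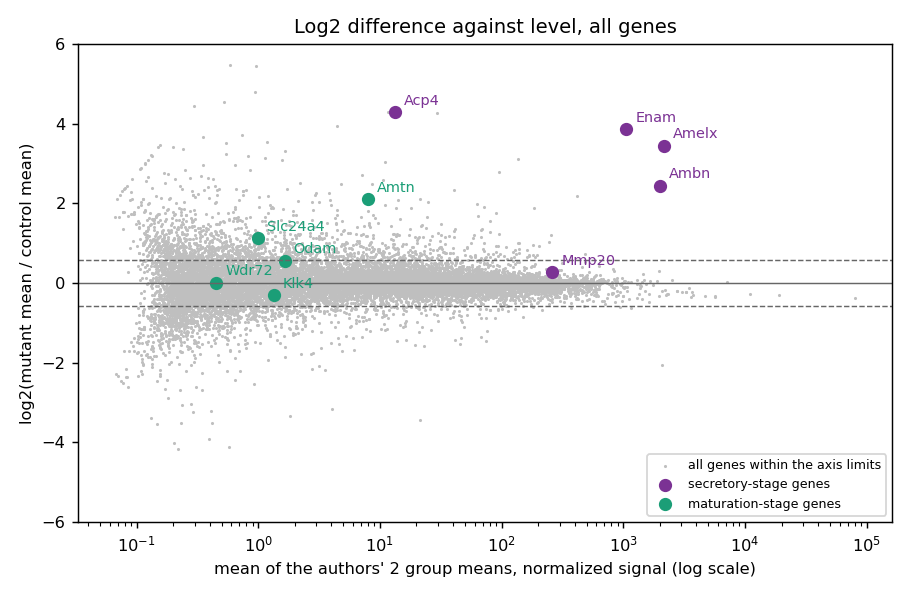
Log2 of the mutant mean over the control mean (y axis) against the mean of both group means (x axis, log scale) for all genes with a difference of at most 6 either way (grey), with the secretory-stage genes in purple and the maturation-stage genes in green; dashed lines mark a fold of 1.5. *Enam*, *Amelx* and *Ambn* stood far above the grey points of similar level, *Mmp20* lay within the dashed lines, and the maturation-stage genes lay at low levels where grey points spread widely.

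To compare levels between genes, the means were divided by exonic length in kilobases. Per kilobase, *Amelx* had 362 in controls and 3950 in mutants, and *Ambn* had 322 and 1751. They were at ranks 60 and 69 of 18840 genes with a length in the controls, and at ranks 6 and 19 in the mutants. *Enam*, whose exons cover 5490 bases, had 24.7 and 361 per kilobase. *Mmp20* had 71.9 and 86.6, so that per kilobase it stood above *Enam* in the controls and below it in the mutants. *Acp4* had 0.743 and 14.4 per kilobase. The order in the controls was *Amelx*, *Ambn*, *Mmp20*, *Enam*, *Amtn*, *Klk4*, *Odam*, *Acp4*, *Slc24a4* and *Wdr72*. In the mutants *Enam* exchanged places with *Mmp20*, *Acp4* stood directly above *Amtn*, and *Odam* stood above *Klk4*. Without a spread over libraries, which neighbours in these orders differ beyond error cannot be said.

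The proportions of the secretory-stage genes to each other were also compared between the group means, with no spread to set them against. These are whole-tissue values, so they do not show which cells made each transcript or that proportions changed within ameloblasts. Per kilobase, *Amelx* was 1.13 times *Ambn* in controls and 2.26 times in mutants, and *Enam* was 0.0769 and 0.206 times *Ambn*. *Mmp20* was 0.223 times *Ambn* in controls and 0.0495 times in mutants, the opposite direction. Of the summed signal per kilobase of the 5 genes, *Amelx* had 46.4% in controls and 64.1% in mutants, *Ambn* had 41.2% and 28.4%, *Mmp20* had 9.20% and 1.41%, and *Enam* had 3.16% and 5.86%. Within the maturation stage *Amtn* was the largest share in both groups, at 55.6% in controls and 82.2% in mutants, while *Klk4* was 22.5% and 6.23%. The secretory sum per kilobase was 147 times the maturation sum in controls and 398 times in mutants.

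**Figure D3:**
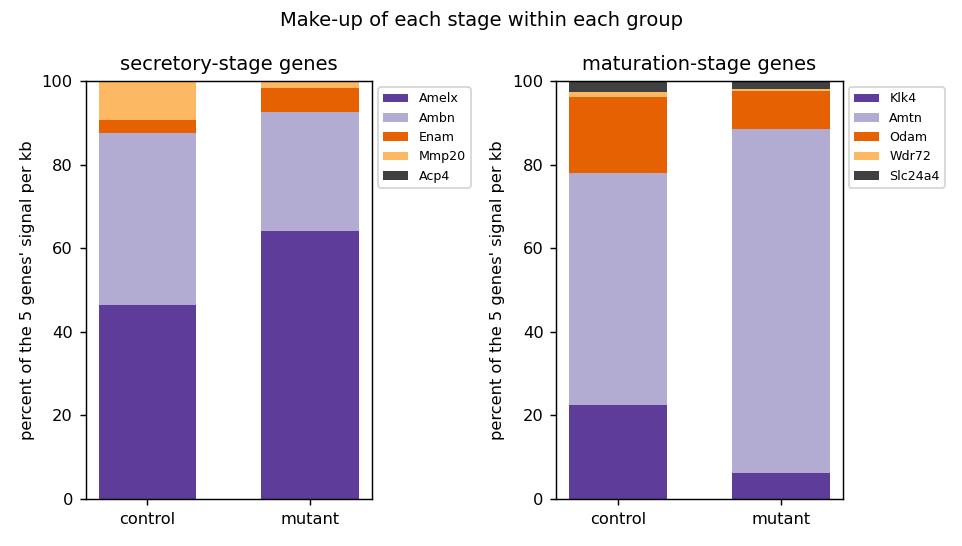
Share of each gene (colors) in the summed signal per kilobase of the 5 secretory-stage genes (left) and the 5 maturation-stage genes (right), from the control and mutant group means. *Amelx* made up 46.4% of the secretory sum in controls and 64.1% in mutants, and *Mmp20* 9.20% and 1.41%, whereas *Amtn* formed most of the maturation sum in both groups.

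Several of the members are neighbours in the genome, and the coordinates here are those of GENCODE vM21 on GRCm38. *Odam* (chromosome 5, 87885029 to 87894174), *Amtn* (88376108 to 88385916), *Ambn* (88455991 to 88468531) and *Enam* (88487975 to 88506049) follow each other on the plus strand within 621021 bases, with 19443 bases between *Ambn* and *Enam*. Along this row the log2 differences were 0.56, 2.11, 2.44 and 3.87. Before *Odam*, the nearest measured genes lay 886595 to 1208712 bases away. Their log2 differences were 0.31 (*Gm5869*), -0.019 (*Ythdc1*) and 0.94 (*Tmprss11b*, with low means of 0.571 and 1.10). After *Enam*, the nearest measured genes lay 13760 to 58456 bases away. They had log2 differences of 0.45 (*Jchain*), 0.10 (*Utp3*) and 0.01 (*Rufy3*). *Klk4* (chromosome 7, 43881160 to 43885804) and *Acp4* (chromosome 7, 44252148 to 44257378, minus strand) are 366343 bases apart, at either side of part of the kallikrein cluster, and differed by -0.31 and 4.28. *Mmp20* (chromosome 9, 7628231 to 7674979) sits in the metalloproteinase cluster with *Mmp13*, a collagenase, which had means of 41.0 and 138, a ratio of 3.38. *Wdr72* is on chromosome 9 at 74110356 to 74283308 and *Slc24a4* on chromosome 12 at 102128733 to 102267091.

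*Amelx* (chromosome X, 169176114 to 169187200, minus strand) lies within an intron of *Arhgap6*, a gene for a GTPase-activating protein on the opposite strand. *Arhgap6* had means of 2.28 and 3.10, a ratio of 1.36. The 639 X-linked genes of the table had a median log2 difference of -0.034, and the 16749 autosomal genes had 0.0079. Over the 39 distinct measured neighbours of the 10 members, up to 3 on each side, the median was 0.057, with 25 higher in the mutants, 4 past a fold of 1.5 upward and 3 downward. Of all 19270 genes, 9731 were higher, and 7.37% passed that fold upward and 5.80% downward. The neighbours' counts past the fold are near this background.

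**Figure D4:**
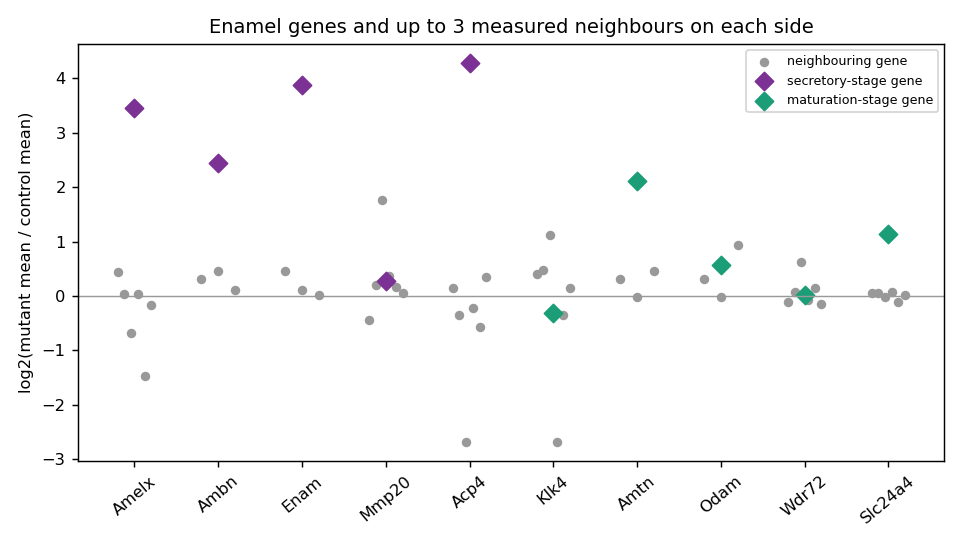
Log2 of the mutant mean over the control mean for each enamel gene (diamonds) and for its measured neighbours in the genome that are no members themselves (grey points, up to 3 on each side). *Amelx*, *Ambn*, *Enam*, *Acp4*, *Amtn* and *Slc24a4* stood above all of their plotted neighbours, whereas *Mmp20* lay below *Mmp13* at 1.76.

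Other genes that enamel needs were examined in 3 lists. Of 11 measured genes for enamel structure and ameloblast adhesion, 9 were higher in the mutants, 6 of them past the fold of 1.5, with a median log2 difference of 0.67. Among the 6 were genes of laminin chains, which anchor epithelium to its basement membrane: *Lama3* had means of 24.2 and 167, and *Lamb3* had 40.8 and 119. *Itgb6*, an integrin subunit of ameloblasts, had 5.72 and 21.2, a log2 difference of 1.89 between those of *Lama3* (2.79) and *Lamb3* (1.55), while *Fam20c*, the kinase that phosphorylates enamel proteins, had 46.0 and 43.2. Of 17 measured genes for ion and acid handling, a task of the maturation stage, 9 were higher and 8 lower, with 2 and 4 past the fold and a median of 0.045. Beside the shares of all genes past the fold, 7.37% upward and 5.80% downward, the upward count is near the background. In that list *Slc39a4*, a zinc transporter, had the largest difference at 1.43, from means of 0.217 and 0.584, and *Slc26a4*, the anion exchanger pendrin, the smallest at -0.83. *Cftr*, a chloride channel, had means of 3.81 and 8.86. Of 10 transcription factors, 6 were higher and 2 were past the fold, with a median of 0.16; *Tbx1*, which is active in dental epithelium, had means of 12.5 and 19.5, *Dlx3* had 470 and 362 and the lowest difference at -0.38, and *Sp6*, required for ameloblast differentiation, had 375 and 421.

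Among genes outside the list with a mean of at least 10, the 10 with the largest log2 difference were set beside the secretory-stage genes. Among the 10 were the Y-linked *Ddx3y*, *Eif2s3y*, *Uty* and *Kdm5d*, and further *Angptl7* (4.30), *Rps3a3* (4.26), *Cntnap2* (3.04), *Lama3* (2.79) and *Rpl34-ps1* (2.59). Of those named here, all but *Lama3* met the level through their mutant means alone. Control means were at most 0.0434 for the Y-linked genes. They were 1.12 for *Angptl7*, 2.93 for *Rps3a3*, 2.41 for *Cntnap2* and 3.01 for *Rpl34-ps1*. *Rps3a3* and *Rpl34-ps1* are annotated as processed pseudogenes, whose reads cannot be cleanly separated from their parent genes. At this level, 6 genes that are no members had a difference as large as the secretory median of 3.45, and 4 of these were Y-linked.

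Markers of epithelium as a whole were also higher in the mutants. Although the dissected tissue is described as mesenchymal in the study's methods, epithelial transcripts were present in both groups. All 23 measured of 24 pan-epithelial genes had higher mutant means, 20 of them past the fold of 1.5, with a median log2 difference of 0.92 and a summed level of 1100 in controls and 2001 in mutants. The same fold was passed upward by 7.37% of all genes. By level, this was 2.15% at a mean of 10 or more and 13.4% below it. Of the 23 genes, 14 had a mean of 10 or more. Among the basal keratins, *Krt14* had means of 90.4 and 182 and *Krt5* had 154 and 359; the claudin *Cldn7* had 0.129 and 0.255, and *Krt19* was not among the measured genes. Relative to this median, the differences were 3.36 for *Acp4*, 2.95 for *Enam*, 2.53 for *Amelx*, 1.53 for *Ambn* and 1.19 for *Amtn*, while *Mmp20* was at -0.65, *Odam* at -0.35 and *Klk4* at -1.23. Per kilobase, *Ambn* was 6.25 times *Krt14* in controls and 16.9 times in mutants, and *Mmp20* was 1.40 and 0.836 times *Krt14*. The part of the epithelial share in the members' differences was not tested. Whether the *Mmp20* transcripts came from epithelium alone was not tested either.

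Lists named for neighbouring epithelial cells had smaller medians than the pan-epithelial list. Whether other cells of the tissue also express the listed genes was not examined. The medians therefore do not show that those epithelial cells changed less. The 6 cervical loop progenitor genes were all higher, 2 of them past the fold, with a median of 0.50 and summed levels of 1029 and 1186. A single gene gave 847 and 928 of these sums. *Shh* had means of 103 and 174 and *Sox2* had 1.60 and 2.68. Beside this and the lists below, 7.37% of all genes passed the fold upward and 5.80% downward. The 4 genes of the stratum intermedium, the layer that backs the ameloblasts, had a median of 0.27 with summed levels of 944 and 833. Here too a single gene, at 817 and 672, made up most of the sums, while 3 of the 4 were higher in the mutants. The 4 measured of 7 genes of cornifying oral epithelium had a median of 0.44, and their summed levels of 6.04 and 7.27 were low in both groups. In the mesenchyme, all 7 odontoblast genes were lower, with a median of -0.31, summed levels of 28660 and 23102, and 1 past the fold: *Dmp1*, a dentin matrix protein, had means of 68.1 and 23.7. The 6 genes of dental mesenchyme had a median of -0.078, with *Gli1*, the hedgehog target whose promoter drives CreER, at 106 and 46.1. Mutants carried *Gli1-CreER*, and controls are not stated to carry it. Effects of that allele and of *Arid1b* loss on *Gli1* cannot be told apart.

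For the mesenchymal relatives of the enamel phosphoproteins, 4 of 5 were measured, with a median log2 difference of -0.13. *Dspp*, the precursor of the main dentin phosphoprotein, had means of 5179 and 4136, while *Spp1*, for osteopontin, had 38.9 and 99.2 and *Ibsp*, for bone sialoprotein, 72.4 and 75.4. The endothelial, macrophage, perivascular and glial lists, of 5 genes each, had medians of 0.055, 0.22, -0.22 and -0.094, and 1 gene of these lists, the perivascular *Kcnj8*, passed the fold, downward. Of 4 osteoclast genes 3 were higher past the fold, with a median of 0.79 and summed levels of 102 and 121. Yet 1 of the 3 rested on few reads, with means of 0.0945 and 0.154. The most abundant osteoclast gene was not higher, at 79.4 and 76.0. The 4 erythroid genes were all lower past the fold, with a median of -1.49 and summed levels of 59.2 and 21.1. For comparison, 7.37% of all genes passed the fold upward and 5.80% downward.

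**Figure D5:**
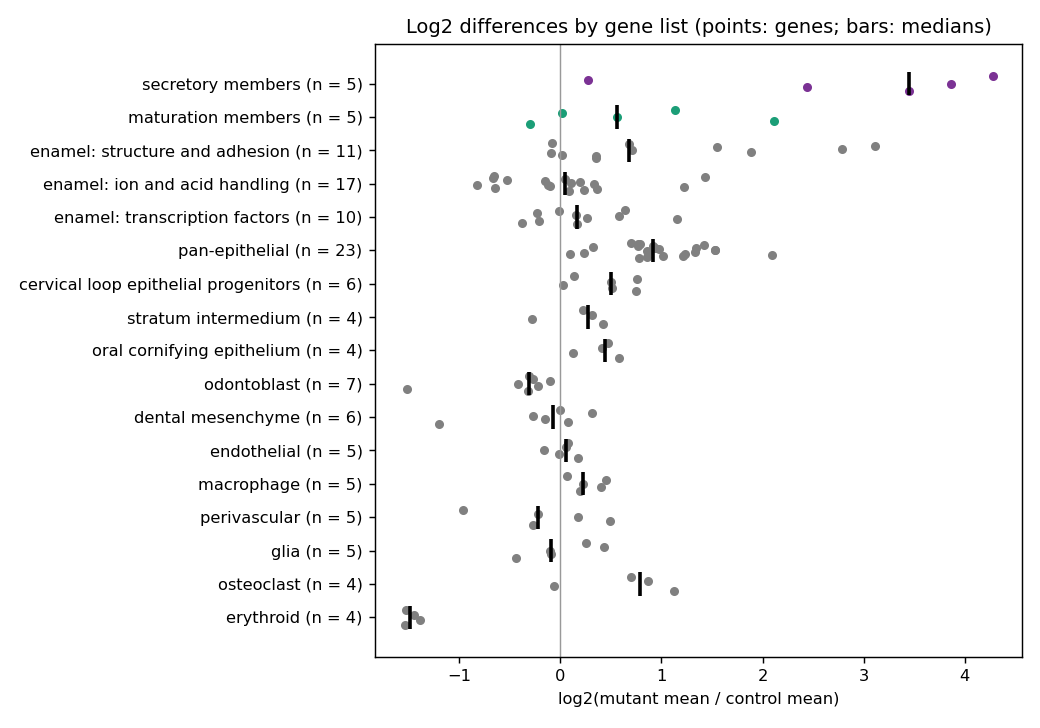
Log2 of the mutant mean over the control mean for each measured gene (points) of the enamel lists and of the marker lists, with black bars at the medians. The secretory-stage genes had the highest median at 3.45, the maturation-stage genes lay at 0.56, the pan-epithelial genes at 0.92 and the odontoblast genes at -0.31.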

How the data were processed

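Bulk RNA from the proximal incisor was sequenced in 3 control and 3 mutant libraries. Per the methods, Partek Flow was used by the authors for trimming, alignment to mm10 and the group comparison; the submitters' processing notes name TopHat2 2.0.8. Read counting, strand, annotation and normalization are not given in the sources used here. The deposited values are group means of a normalized signal per gene, and a deposited summary gives each library's signal quantiles, with an upper quartile alike in all 6. Averaged over genes, each group mean equaled the average of its libraries' means, so it is an arithmetic mean. A value was read as reads plus 1 times a factor per library, an inference from the lowest values. The authors' p-values, FDR, ratios and fold changes of the mutant against control comparison, and their table of genes past thresholds, were not used; neither were 3 other numeric columns of the summary. Replicate samples are not stated to be separate animals beyond their titles.

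Log2 differences are log2 of the mutant over the control mean, without a pseudocount. No test was run, since no values per library were used here; the test planned for such values did not apply. A fold of 1.5, as in the study's methods, and of 2 served as thresholds. The members and lists were chosen with earlier results of these data known. Named genes are the members, listed genes, the 3 nearest measured neighbours on each side, and the 10 non-members with the largest difference at a mean of at least 10; *2410002F23Rik*, *Arhgap6* and *Mmp13* were named as an overlapping, host and neighbouring gene. Some listed genes are not reported here. Exonic length came from GENCODE vM21, in which 18840 of 19270 symbols matched 1 gene. Neighbours and promoters came from RefSeq on GRCm38.p6. Scripts used Python 3.11.15, numpy 2.4.6, pandas 2.3.3 and matplotlib 3.10.9, and were tested on simulated data. Alternatives were a pseudocount, subtraction of the lowest mean, means for medians, a level filter and centring.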

Additional observations from a re-analysis of the deposited data

How the results depend on the processing

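No paired analysis was possible because the deposited means pool the libraries of each group, and leaving out each replicate was not run for the same reason. The secretory median log2 difference of 3.45 was 3.44 with a pseudocount of 1, 2.43 with a pseudocount of 10, 2.86 as a mean, 3.44 centred on all genes, 2.53 centred on the pan-epithelial list and 3.16 without the X-linked *Amelx*, an alternative chosen after seeing the data. The maturation median of 0.56 was 0.35 and 0.079 with the pseudocounts of 1 and 10, 0.58 with the lowest mean subtracted, 0.70 as a mean and -0.35 centred on the pan-epithelial list. No maturation-stage gene reached a mean of 10, so that filter gave no value for it. The difference between the stages, 2.88, was 3.10 and 2.35 with the pseudocounts of 1 and 10, 2.87 with the lowest mean subtracted, 2.16 between means and 2.59 without *Amelx*. It stayed positive in each alternative run, which lends no support, since the members were picked from this contrast. Pseudocounts shrink differences of low genes by construction; *Acp4* went from 4.28 to 1.64 with a pseudocount of 10. The count of 6 members past the fold was 6 at a fold of 2, with the lowest mean subtracted and centred on all genes, 5 with a pseudocount of 1, and 4 where a mean of 10 or more was required, a level that *Acp4* met through its mutant mean alone. Of 50 values of single members under these settings, 47 kept their sign; *Mmp20*, *Odam* and *Wdr72* turned negative when centred on the pan-epithelial list. Means of *Wdr72*, *Slc24a4*, *Klk4*, *Odam* and, in the controls, *Acp4* rest on few reads.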
